A study of Mus musculus with 11 samples.

Results

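The 9 genes described here encode the machinery that cuts Notch receptors and the partners of RBPJ, the DNA-binding protein through which cut Notch acts: the proteases Adam10 and Adam17, the gamma-secretase subunits Psen2 and Ncstn, Rbpj itself, the coactivators Maml1, Maml2 and Maml3, and the corepressor Spen. They were chosen by name, and each region of histone H3 lysine 27 acetylation (H3K27ac) that the authors assigned to one of these symbols was used. This gave 66 of the 56342 regions in the authors' deposited table, for 8 of the 9 genes. Maml3 held 34 of them, Rbpj 9, Maml1 8, Psen2 6, Adam10 3, Adam17 3, Spen 2 and Ncstn 1, by the symbols in the authors' deposited table. No region carried the symbol Maml2, so this gene is not analysed here through regions of its own.

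H3K27ac was measured by chromatin immunoprecipitation and sequencing (ChIP-seq) in Beko cells, a single mouse pre-T cell line. Cells received apicidin at 0.01 mg/ml, the gamma-secretase inhibitor DAPT (GSI) at 10 mg/ml, or DMSO as control, each for 24 h and with doses as labelled, and 2 H3K27ac libraries were made per condition. Apicidin inhibits histone deacetylases and is labelled as an HDAC3 inhibitor. RBPJ was profiled in 2 libraries of DMSO-treated cells only, so nothing is known here of RBPJ binding after either treatment, and 1 input library per condition brings the total to 11.

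Only summary values per region were used: the base mean, which is the authors' mean of normalised read counts over libraries, and a log2 fold change with its standard error (SE) for apicidin and for GSI, each taken to be relative to DMSO. Values of single libraries are not analysed here and depth per library is unknown, so the precision of a value is carried by its SE. Whether the 2 libraries of a condition stem from separate cultures is not said in the labels. The p-values therefore rest on a spread between libraries that may be purely technical. "Higher" and "lower" mean an adjusted p under 0.05 by the authors' DESeq2 test, and the calls are relative to the other regions, since the authors' normalisation may have removed a change common to all. In bulk cells, a lower signal can stem from fewer cells carrying the mark or from less of it per cell, and these cannot be told apart. As a check of the label, 7 of 7 pre-T markers had a region and 6 had one covering the transcription start site (TSS), with base means of 690 to 8020 in the authors' deposited table. Of 4 markers each, 3 B-lineage, 1 myeloid and 2 erythroid genes had a region, and 0 of these covered a TSS.

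Notch receptors are cut in sequence at the cell membrane. ADAM10 or ADAM17 removes the outer part, and gamma-secretase, in which a presenilin such as PSEN2 is the catalytic subunit and nicastrin (NCSTN) a structural one, then frees the intracellular domain. That domain enters the nucleus and binds RBPJ together with a Mastermind-like protein (MAML), which recruits acetyltransferases. Without Notch, RBPJ can bind corepressors such as SPEN, which links to histone deacetylases. Notch signalling drives early T cell development.

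The authors marked 4 of the 66 regions (6.06%) as overlapping an RBPJ site, against 2.73% of all regions. The mark lay on 3 of the 6 regions covering a TSS and 1 of the 60 others, against 12% and 1.22% of all such regions. In the authors' deposited table, these 3 cover the start sites of Adam10, Rbpj and Spen, and the fourth marked region lies beside the Adam10 start. The promoter sequences of these 3 genes are therefore shown, from 250 bases before the start to 50 after it, 5′ to 3′ on the gene's own strand, as given by RefSeq for GRCm38.p6. Capitals mark TGGGAA, the core of the sequence RBPJ binds, or TTCCCA, its reverse complement, and in Spen the longer GTGGGAA, which contains TGGGAA. The windows are chr9:70678732-70679031 (plus strand) for Adam10, chr5:53590096-53590395 (plus strand) for Rbpj and chr4:141538548-141538847 (minus strand) for Spen. The deposited regions are on mm9, and no coordinate was converted between the builds.
Adam10: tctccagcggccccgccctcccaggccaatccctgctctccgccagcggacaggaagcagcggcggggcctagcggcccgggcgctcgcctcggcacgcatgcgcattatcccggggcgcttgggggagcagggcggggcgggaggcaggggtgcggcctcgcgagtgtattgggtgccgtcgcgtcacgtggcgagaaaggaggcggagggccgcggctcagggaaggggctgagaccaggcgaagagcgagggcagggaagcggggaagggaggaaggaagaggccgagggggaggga
Rbpj: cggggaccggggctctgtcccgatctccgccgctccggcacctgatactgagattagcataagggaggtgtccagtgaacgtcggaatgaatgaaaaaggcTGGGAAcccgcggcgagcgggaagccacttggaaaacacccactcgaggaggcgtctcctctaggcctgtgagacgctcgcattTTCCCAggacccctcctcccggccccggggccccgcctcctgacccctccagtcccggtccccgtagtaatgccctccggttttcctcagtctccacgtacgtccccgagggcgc
Spen: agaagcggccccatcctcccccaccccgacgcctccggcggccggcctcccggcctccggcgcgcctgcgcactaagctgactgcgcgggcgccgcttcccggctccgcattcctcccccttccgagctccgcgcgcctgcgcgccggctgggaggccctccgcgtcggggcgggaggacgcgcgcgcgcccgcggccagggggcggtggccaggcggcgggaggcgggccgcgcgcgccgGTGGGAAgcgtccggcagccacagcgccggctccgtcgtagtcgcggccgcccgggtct

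The Rbpj window held TGGGAA 149 bases before the start and, on the other strand, 65 bases before it. The Spen window held GTGGGAA 9 bases before the start, and the Adam10 window held no match on either strand. Over all 9 genes, 6 of 12 promoter windows, from 5 genes, held TGGGAA on either strand, and 2 windows, of Spen and Psen2, held GTGGGAA. The windows of Rbpj overlap, so its match 65 bases before the printed start lies in each of them. Among 32851 RefSeq promoters of the same length, TGGGAA was present in 25.6% and GTGGGAA in 6.38%. The 3 printed windows were rich in CpG dinucleotides, with 32 for Adam10, 26 for Rbpj and 54 for Spen, against a median of 7 over all promoters. A match describes these letters only and is not a measured binding site.

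Apicidin lowered H3K27ac at some of the 66 regions and raised it at few. By the authors' deposited calls for apicidin against DMSO, 3 regions were higher, 9 were lower and 54 were not called, a called share of 18.2% against 23.8% of all 56342 regions. In the lower direction the share over all regions was 14.1%, and in the higher direction 9.69%. The calls fell on 4 of the 8 genes, Adam10, Rbpj, Maml1 and Maml3, while Adam17, Psen2, Ncstn and Spen had none in the authors' deposited table. The median log2 fold change of the 66 regions was -0.14, beside 0.0040 for all regions. It was -0.25 for the 34 regions of Maml3 and -0.06 for the 32 regions of the other genes.

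GSI gave a single call. Of the 66 regions 29 had an adjusted p for GSI, of which 1 was lower, 28 were not called and 0 were higher by the authors' DESeq2 calls, a called share of 3.45% against 13.8% of the 25756 regions tested. Over those, 7.17% were lower and 6.62% higher. At an unadjusted p under 0.05, 7 of the 66 regions were higher and 3 lower with GSI in the authors' deposited table. Over all 56342 regions, 4140 were higher and 4190 lower at that level. For the other 37 regions no adjusted p for GSI was given, and they are treated as untested: over the whole table no region with a base mean below 72.1 had one. The median GSI log2 fold change of the 66 regions was 0.02.

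At the start sites, 6 regions covered a TSS, 1 each for Adam10, Adam17, Rbpj, Maml1, Maml3 and Spen. Their base means ran from 715 to 1754 in the authors' deposited table and their widths from 2023 to 5062 bp. Per kilobase of region, base mean was highest for Maml1 (353) and Maml3 (347), followed by Rbpj (297), Adam10 (278), Spen (272) and Adam17 (220), computed from the authors' deposited table. Adam17 thus stood at percentile 42.8 of all TSS-covering regions on that scale and Maml1 at percentile 84.4. With apicidin 2 of the 6 were lower, those of Adam10 and Maml1, and 0 were higher by the authors' DESeq2 calls, beside 39.4% lower and 8.01% higher of all regions covering a TSS. At an unadjusted p under 0.05 the apicidin counts were the same, 2 lower and 0 higher, beside 3691 and 830 of all 7889 regions covering a TSS. All 6 apicidin values were below 0, but those of Adam17, Rbpj and Spen turned positive once the trend over base mean was subtracted, and that of Maml3 did so then and on centring. With GSI 0 of the 6 were called by the authors' DESeq2 test, against 9.61% of all TSS-covering regions tested (4.36% lower and 5.25% higher). At an unadjusted p under 0.05 1 of the 6 was lower and 0 higher with GSI, beside 725 and 766 of all 7889 regions covering a TSS.

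The 60 regions off a start site were weaker, with a median base mean of 46.3 in the authors' deposited table. With apicidin 3 of them were higher and 7 lower, beside 9.97% and 10% of all regions off a TSS, 20% called in all. With GSI 1 of 23 tested was lower and 0 were higher by the authors' DESeq2 calls, beside 8.35% lower and 7.2% higher of all such regions tested, 15.6% in all. At an unadjusted p under 0.05, 7 of the 60 were higher and 2 lower with GSI, beside 3374 and 3465 of all 48453 regions off a TSS. All 10 apicidin calls off a start site belonged to Maml3, Rbpj and Adam10.

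**Figure D1:**
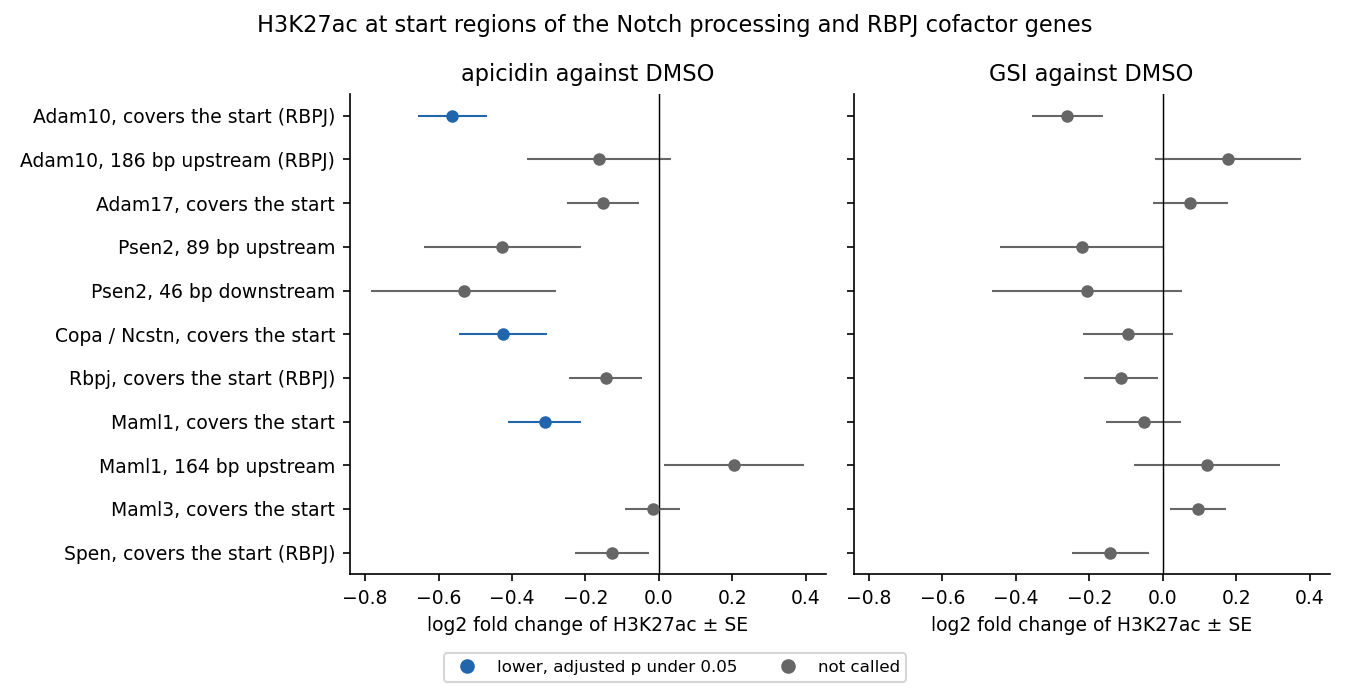
Log2 fold change of H3K27ac (horizontal axis, points with bars of ± 1 SE) at regions that cover or lie within 1 kb of the start sites of the genes, for apicidin against DMSO on the left and GSI against DMSO on the right, with the region over the Ncstn start labelled Copa / Ncstn. Blue marks an adjusted p under 0.05 and grey no call: with apicidin the Adam10, Copa / Ncstn and Maml1 start regions are lower, and with GSI none is called.

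Among the receptor-cutting proteases, Adam10 fell with apicidin at its start and within the gene, whereas Adam17 had no call. The Adam10 start region (chromosome 9, 70526728 to 70529869, base mean 872, RBPJ-marked) fell by 0.56 ± 0.09 with apicidin in the authors' deposited table (SE; adjusted p = 6.54e-08), so that the signal fell by 32.3% against DMSO. With GSI the same region had -0.26 ± 0.10, just outside the threshold in the authors' deposited table (unadjusted p = 0.0073, adjusted p = 0.0522). Both treatments thus had the same sign there, and their difference of -0.30 ± 0.14 did not pass with the summed variances (apicidin minus GSI, adjusted p = 0.180) but passed with an SE that allows for the shared DMSO libraries (adjusted p = 0.0110).

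Downstream of the start by 81.4 kb, within the gene's RefSeq length of 101 kb, a weaker Adam10 region (70608224 to 70609503, base mean 178) fell by 0.63 ± 0.21 with apicidin in the authors' deposited table (adjusted p = 0.0124). Its GSI value was 0.02 ± 0.21 in the authors' deposited table (adjusted p = 0.967). The third Adam10 region (70525983 to 70526621, base mean 152, RBPJ-marked) is separated from the start region by only 106 bp. It was not called in the authors' deposited table, with -0.16 ± 0.20 for apicidin (adjusted p = 0.620) and 0.18 ± 0.20 for GSI (adjusted p = 0.649). The loss at the Adam10 start was therefore not called in the neighbouring RBPJ-marked stretch, where the 95% interval for apicidin, -0.55 to 0.22, still overlaps that of the start region, -0.75 to -0.38.

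At Adam17, which encodes a protease with many membrane substrates besides Notch, the start region (chromosome 12, 21378295 to 21381744, base mean 760) had -0.15 ± 0.10 with apicidin (adjusted p = 0.293) and 0.08 ± 0.10 with GSI (adjusted p = 0.715) in the authors' deposited table. The 95% intervals of -0.35 to 0.04 for apicidin and -0.12 to 0.27 for GSI bound what could have been missed at that start. A pair of weak regions 2.41 and 5.58 kb upstream, with base means of 41.4 and 36.4, were not called with apicidin and were untested with GSI in the authors' deposited table.

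The gamma-secretase subunits had no called region under their own symbols. Psen2 had 6 regions and none covered a start. The start to which 5 of them are tied lies between one 46 bp downstream (chromosome 1, 182185927 to 182186384, base mean 93.0) and one 89 bp upstream (182186521 to 182187403, base mean 127). In the authors' deposited table these flanking regions had -0.53 ± 0.25 (adjusted p = 0.114) and -0.43 ± 0.21 (adjusted p = 0.143) with apicidin, and -0.21 ± 0.26 (adjusted p = 0.692) and -0.22 ± 0.22 (adjusted p = 0.601) with GSI. All 6 Psen2 apicidin values were below 0, from -0.53 to -0.05, and the GSI values spanned -0.34 to 0.38 with 5 of 6 regions tested, in the authors' deposited table. At base means of at most 127 the SEs of the Psen2 regions are 0.21 or more, so changes of a size like that at Adam10 could go uncalled here.

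Ncstn carried 1 weak region (chromosome 1, 174013991 to 174014322, base mean 23.8) with 0.68 ± 0.49 for apicidin in the authors' deposited table (adjusted p = 0.354), untested with GSI. Its symbol misses the region that holds its start, however, since Ncstn and Copa, a gene of coated transport vesicles, start head to head. The region assigned to Copa (174011323 to 174013745, base mean 624) contains the Ncstn start, 864 bp inside its edge, and fell by 0.42 ± 0.12 with apicidin in the authors' deposited table (adjusted p = 0.00299). With GSI that shared region had -0.09 ± 0.12 in the authors' deposited table (adjusted p = 0.702). The signal there cannot be divided between both genes.

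At Rbpj the start region was called under neither treatment, and most of the weakly acetylated regions around it had positive values with apicidin. The RBPJ-marked start region (chromosome 5, 53979343 to 53983099, base mean 1117) had -0.15 ± 0.10 with apicidin in the authors' deposited table (95% interval -0.34 to 0.05, adjusted p = 0.321). For GSI that region had -0.11 ± 0.10 in the authors' deposited table (95% interval -0.31 to 0.09, adjusted p = 0.550). Apicidin minus GSI at this region was -0.03 ± 0.14 (95% interval -0.31 to 0.24, adjusted p = 0.973).

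Of the 8 Rbpj regions off the start, 2 were higher with apicidin and 0 lower by the authors' deposited DESeq2 calls. Of all regions off a TSS, 9.97% were higher and 10% lower. Of the 8 values 6 were positive, and the median log2 fold change was 0.49. Over all 48453 regions off a TSS, 26226 values were positive and the median was 0.06. At an unadjusted p under 0.05 4 of the 8 Rbpj regions were higher and 0 lower, beside 7186 and 6852 of all 48453 regions off a TSS. Both calls lie next to each other, with a gap of 214 bp, and end 96.6 kb before the start region. The authors' deposited table ties Rbpj distances to 3 transcripts. For this pair and 1 other region the distance is counted from a start 34.4 kb upstream of the one in the start region, which puts the pair 65.0 and 64.3 kb from it. The outer region (53881751 to 53882006, base mean 18.9) rose by 2.70 ± 0.70 with apicidin in the authors' deposited table (adjusted p = 0.00104), and had 2.09 ± 0.73 with GSI (unadjusted p = 0.00408, untested after adjustment). The inner one (53882221 to 53882727, base mean 32.8) rose by 1.12 ± 0.43 with apicidin in the authors' deposited table (adjusted p = 0.0406), and had 0.29 ± 0.47 with GSI, untested. Both are weakly acetylated, and the call of the inner one was lost once the trend over base mean was subtracted (adjusted p = 0.0524).

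Nearer to the Rbpj start region, a region 5.17 kb upstream of the start inside it (base mean 70.4) had 0.75 ± 0.31 with apicidin (adjusted p = 0.0597) and 0.65 ± 0.32 with GSI (unadjusted p = 0.0421) in the authors' deposited table. A region 14.3 kb downstream of that same start (base mean 143) had 0.49 ± 0.21 with apicidin (adjusted p = 0.0676) and 0.04 ± 0.22 with GSI (adjusted p = 0.947) in the authors' deposited table. Neither passed, so these are given as values only.

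**Figure D2:**
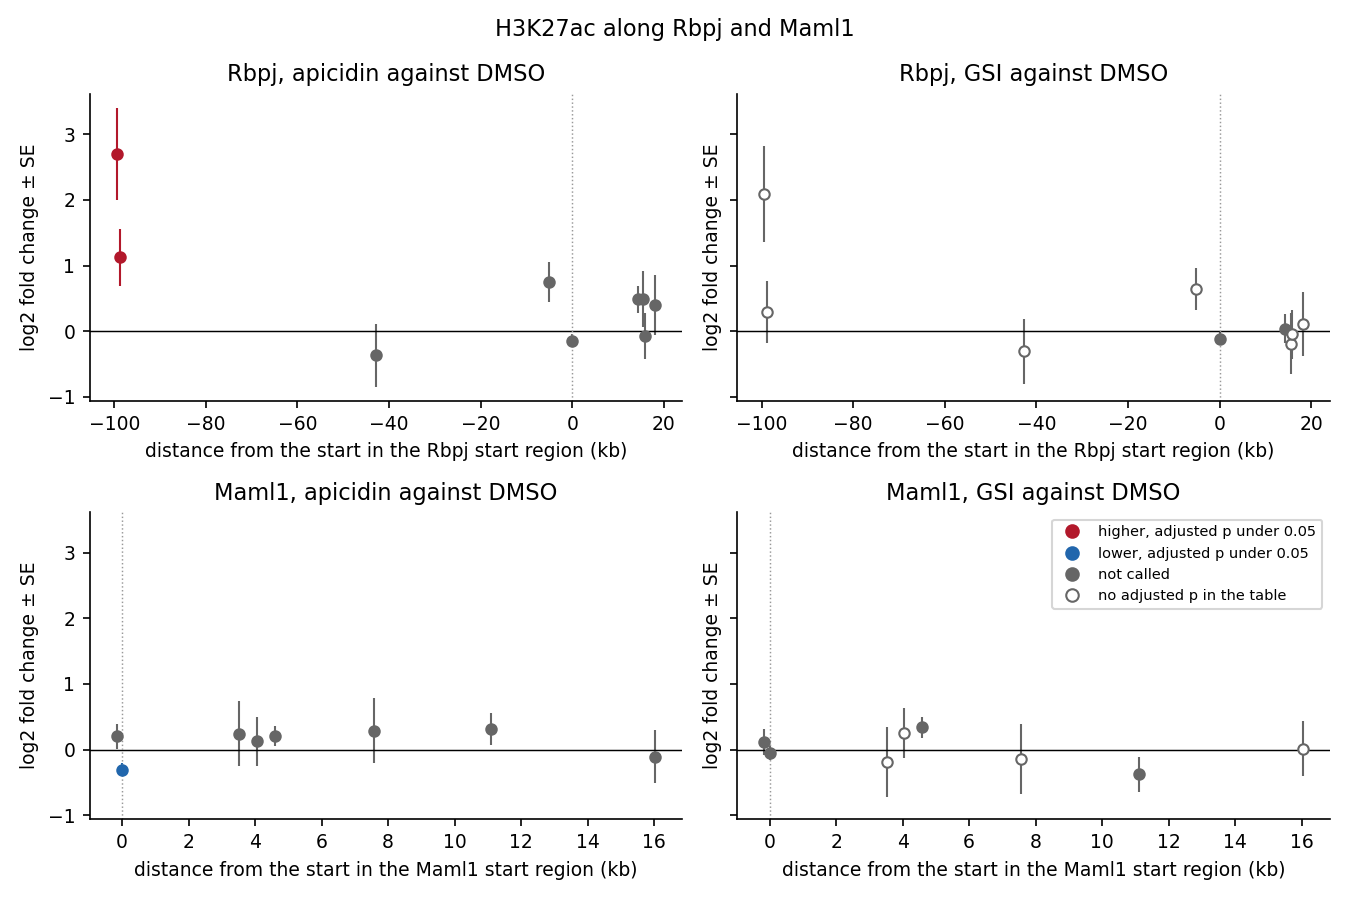
Log2 fold change (vertical axis, points with bars of ± 1 SE) against distance in kb from the start inside each gene's start region (horizontal axis, negative upstream) for the 9 Rbpj and 8 Maml1 regions, with apicidin and GSI in separate panels and a dotted line at that start. The higher calls of Rbpj are the pair at -99.4 and -98.7 kb, whereas the lower call of Maml1 is its start region, with 7 uncalled regions around it.

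Among the Mastermind-like coactivators, Maml1 was called lower at its start and Maml3 was not, and the difference between the genes was not tested. Maml1 fell with apicidin at its start region (chromosome 11, 50103902 to 50105924, base mean 715), by 0.31 ± 0.10 in the authors' deposited table (adjusted p = 0.0106). That call was lost on centring on the stronger regions (-0.21, adjusted p = 0.114) and with the trend over base mean subtracted (-0.14, adjusted p = 0.359). The GSI value there was -0.05 ± 0.10 in the authors' deposited table (adjusted p = 0.823). A second region, 164 bp upstream of the Maml1 start (base mean 184), had 0.21 ± 0.19 with apicidin in the authors' deposited table (adjusted p = 0.50). The 7 Maml1 regions off the start ranged from -0.11 to 0.32 with apicidin, 6 of them positive, and none was called in the authors' deposited table.

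Maml3, whose RefSeq gene length is 418 kb, had its highest base mean at the start and a long run of regions downstream. Per kilobase of region, the base mean was 347 at the start and 352 at the region 32.5 kb downstream. The start region (chromosome 3, 51904665 to 51909726, base mean 1754, width 5062 bp) had -0.02 ± 0.07 with apicidin in the authors' deposited table (95% interval -0.16 to 0.13, adjusted p = 0.909). With GSI it had 0.09 ± 0.08 in the authors' deposited table (95% interval -0.05 to 0.24, adjusted p = 0.492). Of the other 33 regions, 32 lay downstream, up to 190 kb from the start, and 1 lay 74.4 kb upstream. Over all 34, apicidin gave 1 higher, 6 lower and 27 uncalled regions in the authors' deposited table. This was a called share of 20.6%, against 23.8% of all regions (9.69% higher and 14.1% lower). Of the 34 values 24 were below 0, and the median log2 fold change was -0.25. Of the 6 Maml3 regions with the highest base means, 5 were called with apicidin and the start was the exception. Over the whole table, 39.9% of the stronger regions (base mean not below the median of 61.3) were called with apicidin. That share is not matched to these 6 in base mean. Among the 5, the regions 14.7 and 74.2 kb downstream lost their call with the trend over base mean subtracted.

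The Maml3 region of second-highest base mean, 32.5 kb downstream (51872812 to 51876427, base mean 1272), separated the treatments. It fell by 0.44 ± 0.08 with apicidin in the authors' deposited table (adjusted p = 1.26e-06), so that the signal fell by 26.5%. GSI gave 0.20 ± 0.08, not called in the authors' deposited table (unadjusted p = 0.0133, adjusted p = 0.0817). Apicidin minus GSI was -0.65 ± 0.12 (95% interval -0.88 to -0.42, adjusted p = 2.14e-06). Among the 66 regions this was the single difference between the treatments that passed, beside 8.61% of all regions, of which 5.6% were lower and 3.01% higher with apicidin than with GSI. With the SE that allows for shared DMSO libraries, 8 of the 66 differences were lower and 2 higher. That SE assumed a correlation of 0.5 between both log2 fold changes. The share of all regions that passed under it is not given here, and the 8.61% does not apply to it.

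In the opposite direction, a region 95.5 kb downstream of the Maml3 start (51810050 to 51813471, base mean 649) rose by 0.62 ± 0.10 with apicidin in the authors' deposited table (adjusted p = 5.77e-08), to 1.54 times the DMSO signal. With GSI it had 0.27 ± 0.11, not called in the authors' deposited table (adjusted p = 0.0908), and the difference of the treatments did not pass (0.36 ± 0.15, adjusted p = 0.143). It passed with an SE allowing for the shared DMSO libraries (adjusted p = 0.00656) and on centring (0.46, adjusted p = 0.0357). Maml3 thus held both a called rise and called decreases within 1 gene. A region 68.7 kb downstream (51838505 to 51840270, base mean 301) was the only one of the 66 called with GSI. It fell by 0.52 ± 0.14 with apicidin (adjusted p = 0.00206) and by 0.47 ± 0.15 with GSI (adjusted p = 0.0149) going by the authors' deposited table, and the difference of the treatments was -0.05 ± 0.21 (adjusted p = 0.973).

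Closer to the start, a Maml3 region 14.7 kb downstream (51891714 to 51894270, base mean 612) fell by 0.41 ± 0.12 with apicidin in the authors' deposited table (adjusted p = 0.00288) and had -0.03 ± 0.12 with GSI (adjusted p = 0.933). That decrease was no longer called with the trend over base mean subtracted (adjusted p = 0.116). The other 3 decreases with apicidin lay 59.9, 74.2 and 139 kb downstream, with log2 fold changes of -1.19, -0.34 and -0.76 and base means of 30.5, 395 and 124 in the authors' deposited table. Of these, the region 74.2 kb downstream lost its call on centring (adjusted p = 0.177) and on trend subtraction (adjusted p = 0.287). The 27 uncalled Maml3 regions spanned -1.45 to 1.19 with apicidin in the authors' deposited table.

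Assignment to the nearest start leaves part of the Maml3 gene to its neighbour. Farther downstream but within the RefSeq length of Maml3, 10 regions were assigned to Mgst2, of which 1 was lower and 9 were not called with apicidin in the authors' deposited table, and 0 of 6 tested were called with GSI by the authors' DESeq2 test (at an unadjusted p under 0.05, 1 of the 10 was lower and 0 higher). The lower one (51599606 to 51600875) fell by 0.65 ± 0.19 with apicidin in the authors' deposited table (adjusted p = 0.00553). Maml2 is touched in the same indirect way: 8 regions assigned to Phxr4, a noncoding gene that RefSeq places inside Maml2, had base means of 19.2 to 175. Of these, 1 (chromosome 9, 13246954 to 13247508) rose by 1.22 ± 0.38 with apicidin in the authors' deposited table (adjusted p = 0.00777), and 7 were untested with GSI. They lie within 52509 bp of the Phxr4 start, and Phxr4 is at least 134.8 kb from either end of Maml2, so they say nothing of the Maml2 start.

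**Figure D3:**
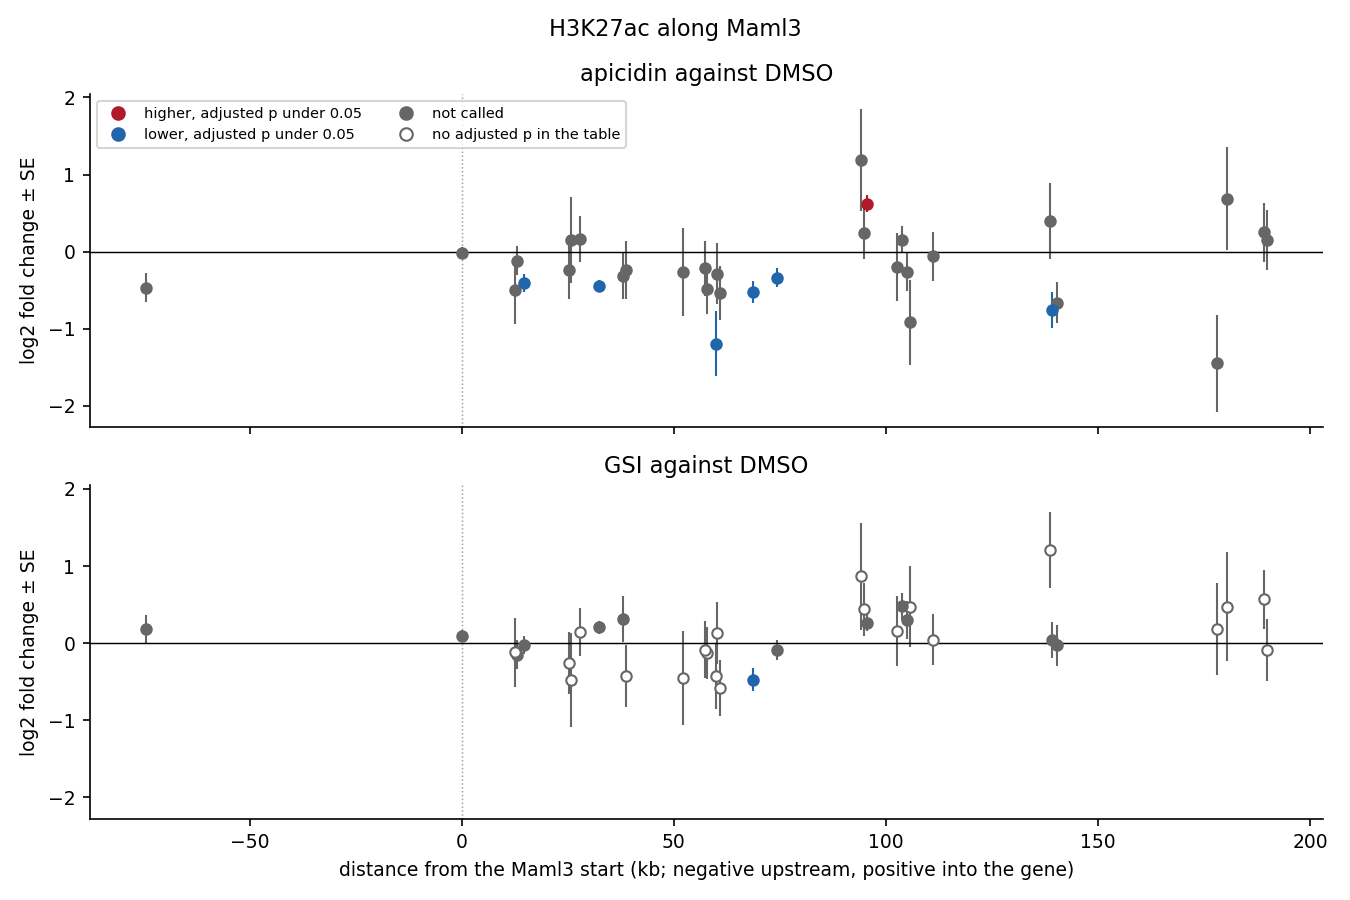
Log2 fold change (vertical axis, points with bars of ± 1 SE) against distance from the Maml3 start in kb (horizontal axis, positive into the gene) for its 34 regions, with apicidin and GSI against DMSO in separate panels. With apicidin the called decreases lie from 14.7 to 139 kb into the gene and the called rise at 95.5 kb, and with GSI the single call is the decrease at 68.7 kb.

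At Spen, the corepressor, no region was called. The RBPJ-marked start region (chromosome 4, 141092799 to 141095614, base mean 766) had -0.13 ± 0.10 with apicidin (95% interval -0.32 to 0.07, adjusted p = 0.408) and -0.14 ± 0.10 with GSI (95% interval -0.35 to 0.06, adjusted p = 0.431) in the authors' deposited table. The difference between the treatments was 0.02 ± 0.14 (95% interval -0.27 to 0.30, adjusted p = 0.988). A weak region 1.82 kb downstream (base mean 43.9) had 0.17 ± 0.36 with apicidin (adjusted p = 0.809) and -0.80 ± 0.40 with GSI (unadjusted p = 0.0488, untested) in the authors' deposited table. A neighbour chosen after its values were seen, the RBPJ-marked start region of the noncoding gene B330016D10Rik, lies 4.935 kb from the Spen start region (141100550 to 141103763, base mean 1776). It fell by 0.57 ± 0.09 with apicidin in the authors' deposited table (adjusted p = 1.97e-09) and had -0.0045 ± 0.09 with GSI (adjusted p = 0.986).

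Across the 4 RBPJ-marked regions, which belong to Adam10, Rbpj and Spen, 1 was lower with apicidin and 0 were called with GSI by the authors' DESeq2 test. Over the whole table, 36.9% of RBPJ-marked regions were lower with apicidin and 10.5% of those tested were lower with GSI. At an unadjusted p under 0.05, the Adam10 start region was the only one of the 4 past that level with GSI. The apicidin and GSI comparisons use the same DMSO libraries, so like signs in both are not independent.

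**Figure D4:**
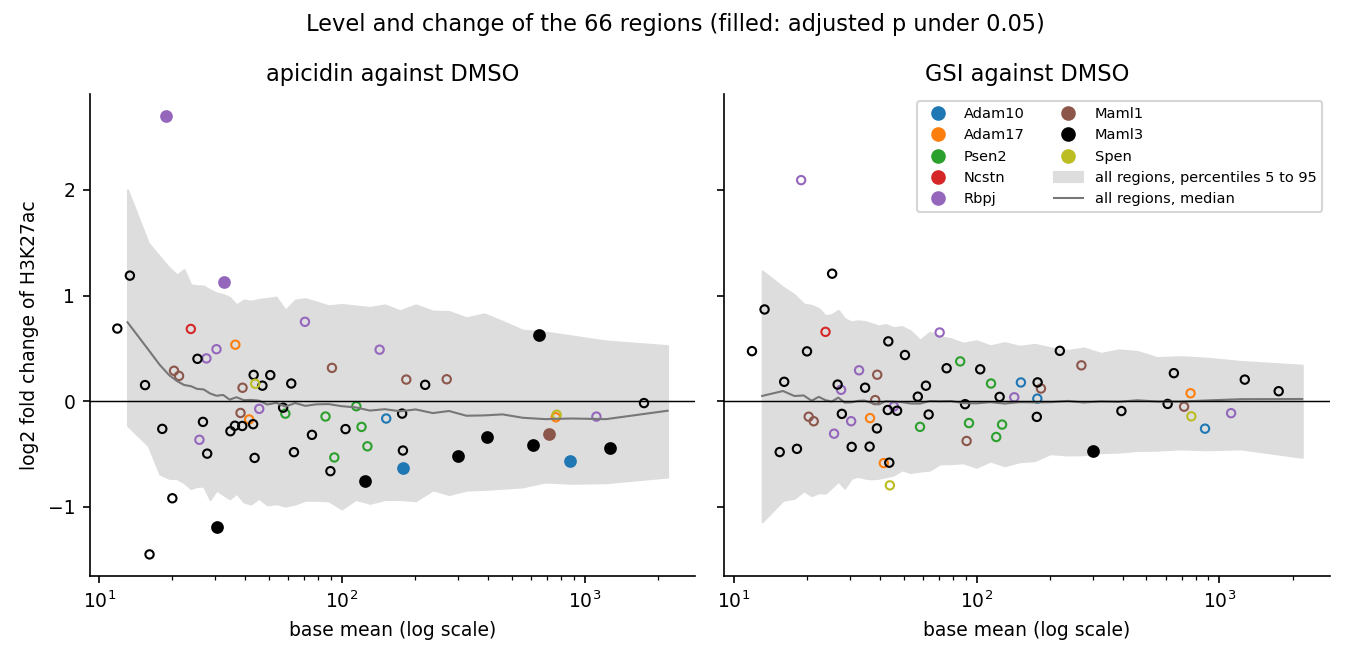
Log2 fold change (vertical axis) against base mean on a log axis (horizontal) for the 66 regions, coloured by gene and filled where the adjusted p was under 0.05, for apicidin and GSI against DMSO. The line is the median and the band the percentiles 5 to 95 of all regions of like base mean, and the called apicidin points above 0 are the Maml3 region at a base mean of 649 and the Rbpj regions at 18.9 and 32.8.

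**Figure D5:**
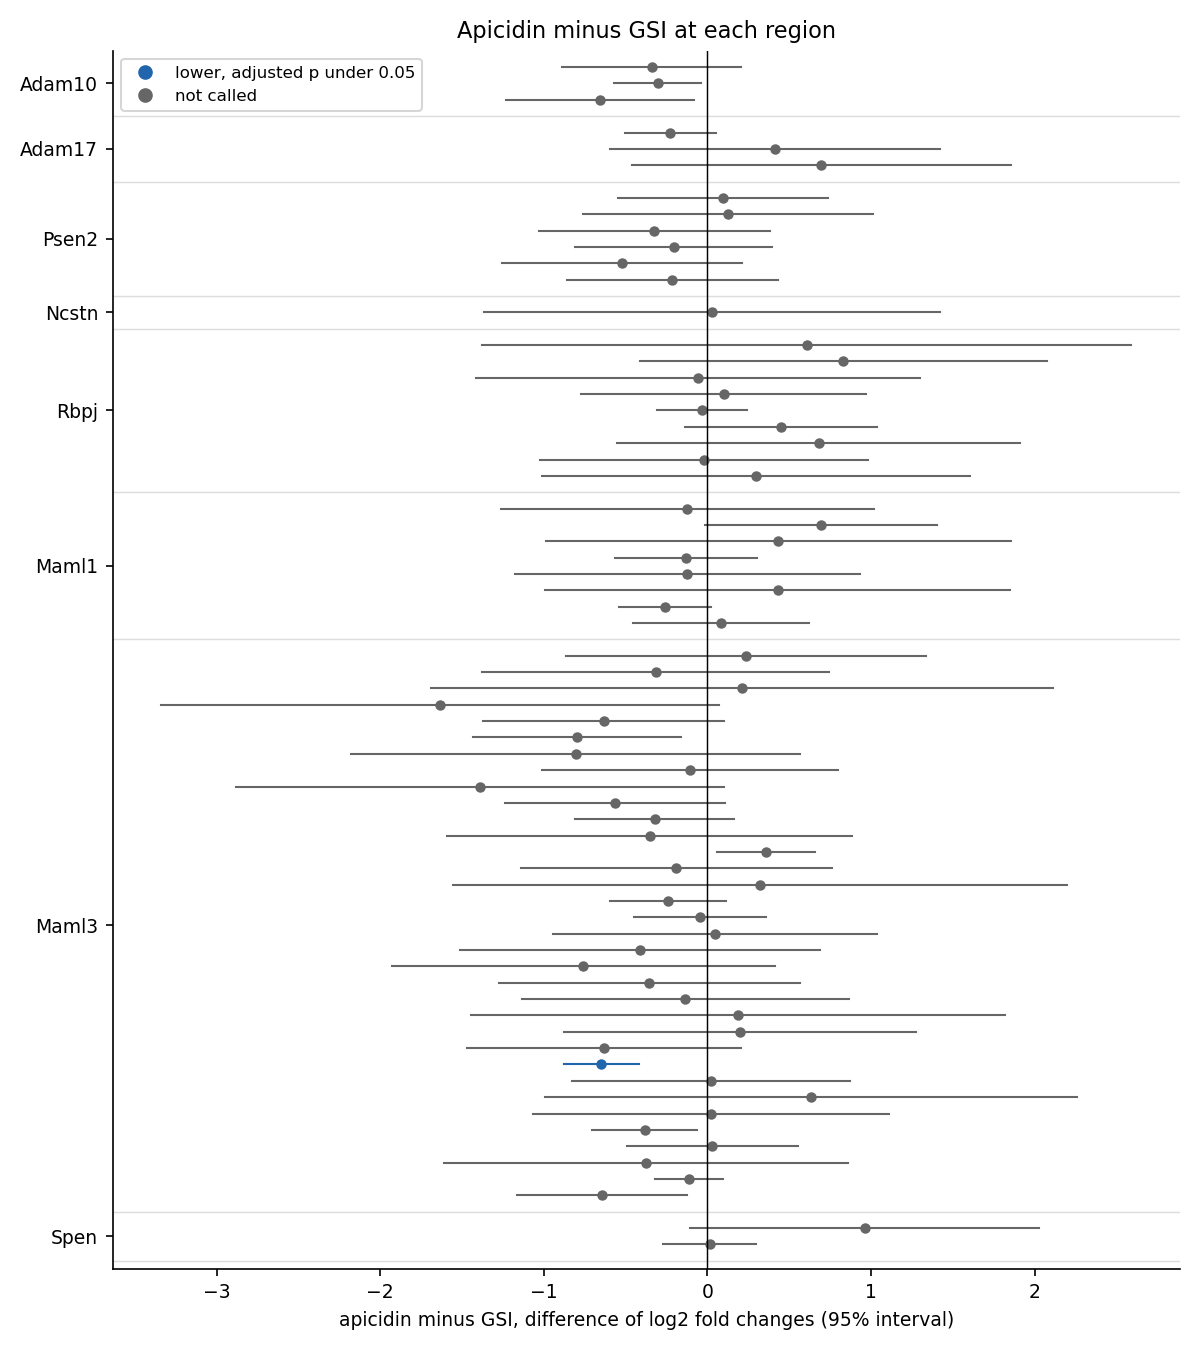
Difference of both log2 fold changes, apicidin minus GSI (horizontal axis), for each of the 66 regions grouped by gene and ordered by position, with 95% intervals from the summed variances. The interval of the Maml3 region 32.5 kb downstream, -0.88 to -0.42, belongs to the only difference with an adjusted p under 0.05 under that SE.

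The rest of the pathway was described through 5 lists of 47 genes by role, and 42 of these genes had a region. With apicidin, 12 had a region that was higher and 19 one that was lower, of which 7 had both, and 18 had no call in the authors' deposited table. With GSI 4 had a higher and 2 a lower region, and 36 had neither. The median log2 fold change of their 224 regions was 0.06 with apicidin and 0.05 with GSI. By region, 10.7% were higher and 13.4% lower with apicidin, near the 9.69% and 14.1% of all regions. Of the 92 tested with GSI 9.78% were higher and 2.17% lower, beside 6.62% and 7.17% of all tested. A gene with many regions has more chances of a call. Counting only the region with the highest base mean of each of the 42 genes, 4 were higher and 14 lower with apicidin. The like share over all genes is not given here. Of all regions covering a TSS (median base mean 475, against 61.3 for all regions), 8.01% were higher and 39.4% lower.

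Of 11 further genes of receptor maturation and cutting, 4 had a higher and 4 a lower region with apicidin, 3 of them both, and 2 had a higher region with GSI. By region this was 13.3% higher and 20.0% lower of 30 with apicidin, beside 9.69% and 14.1% of all regions. Of 16 regions tested with GSI 18.75% were higher and 0% lower, beside 6.62% and 7.17% of all tested. Furin, which encodes the protease that first cleaves Notch receptors in the secretory pathway, rose at a region 43107 bp from its start by 1.05 ± 0.10 with apicidin (adjusted p = 3.16e-21) and by 1.15 ± 0.11 with GSI (adjusted p = 1.5e-24) in the authors' deposited table. It also had 2 lower regions of 5 with apicidin. Pofut1, which adds fucose to Notch receptors, rose by 0.51 ± 0.09 with apicidin at 1 of 4 regions in the authors' deposited table (adjusted p = 1.69e-07). Lfng, whose product elongates that fucose, rose by 0.46 ± 0.16 with GSI in the authors' deposited table (adjusted p = 0.0308), and its relative Mfng fell by 1.69 ± 0.35 with apicidin at 1 of 5 regions, with 1 other higher (adjusted p = 1.55e-05). Aph1b, a gamma-secretase subunit gene with a single, RBPJ-marked start region, fell by 0.69 ± 0.14 with apicidin in the authors' deposited table (adjusted p = 1.81e-05).

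For the ligand list, which also holds the ligand ubiquitin ligases, 3 of 7 genes had a region and 2 were lower with apicidin: Mib1, a ligase, by 0.44 ± 0.12 (adjusted p = 0.00237) and the ligand Dll4 by 1.07 ± 0.42 (adjusted p = 0.0472) at a region of base mean 33.8, in the authors' deposited table. By region 2 of 3 were lower and 0 higher with apicidin, beside 14.1% and 9.69% of all regions. With GSI 0 of 2 tested regions of this list were called by the authors' DESeq2 test, beside 13.8% of all tested. At an unadjusted p under 0.05, 1 of the 3 was lower with GSI and 0 higher. No region carried Dll1, Dll3, Jag1 or Jag2.

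Among 8 coactivator genes, 1 had a higher and 4 a lower region with apicidin, and 1 had a lower region with GSI. By region 3.85% were higher and 15.4% lower of 26 with apicidin, beside 9.69% and 14.1% of all regions. Of 13 regions tested with GSI 0% were higher and 7.69% lower, beside 6.62% and 7.17% of all tested. Besides the acetyltransferase genes Ep300 and Crebbp, which fell by 0.76 ± 0.07 (adjusted p = 3.2e-22) and 0.85 ± 0.12 (adjusted p = 1.17e-10) at their starts with apicidin in the authors' deposited table, Kat2b was called in both directions. At its start Kat2b, another acetyltransferase gene, fell by 0.36 ± 0.08 with GSI in the authors' deposited table (adjusted p = 3.63e-04). A region 651 bp from a Kat2b start rose by 0.23 ± 0.08 with apicidin (adjusted p = 0.0292). With apicidin 1 other of the 13 Kat2b regions was lower, so apicidin alone gave calls in both directions there.

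Of 15 corepressor genes 14 had a region, with 4 higher, 6 lower and 1 of them both under apicidin, and 2 higher and 1 lower under GSI. By region 14.7% were higher and 11.0% lower of 109 with apicidin, beside 9.69% and 14.1% of all regions. Of the 16 higher regions 12 belonged to Tbl1xr1, which had 43 regions, 0 of them lower. Of 41 regions tested with GSI 14.6% were higher and 2.44% lower, beside 6.62% and 7.17% of all tested. Ncor1, which encodes a corepressor that works with HDAC3, fell by 0.47 ± 0.07 with apicidin at its start in the authors' deposited table (adjusted p = 4.89e-11). L3mbtl3, which encodes an RBPJ-binding corepressor, rose by 1.11 ± 0.19 with apicidin (adjusted p = 2.09e-07, 2 of 7 regions) and by 0.89 ± 0.22 with GSI at the adjoining region (adjusted p = 7.43e-04, 2 of 2 tested) in the authors' deposited table. Tbl1xr1, a subunit gene of the NCoR complex, rose at 4 of 15 tested regions with GSI, the one of smallest p by 0.44 ± 0.09 in the authors' deposited table (adjusted p = 5.09e-05), and its highest rise with apicidin by p was 0.69 ± 0.08 (adjusted p = 1.01e-14).

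Of 6 genes of Notch turnover, 3 had a higher and 3 a lower region with apicidin, 2 of them both, and 0 were called with GSI by the authors' DESeq2 test. Of their regions 20 were tested with GSI, and over all tested regions 13.8% were called. At an unadjusted p under 0.05, 2 of the 56 turnover regions were higher and 2 lower with GSI, beside 4140 and 4190 of all 56342. The regions called with apicidin were 5.36% higher and 10.7% lower of the 56, beside 9.69% and 14.1% of all regions. Numbl, a relative of the Notch antagonist gene Numb, fell at 4 of 4 regions with apicidin, the one of smallest p by 0.95 ± 0.20 in the authors' deposited table (adjusted p = 3.75e-05). Numb itself rose at 1 of 4 regions by 0.89 ± 0.28 with apicidin in the authors' deposited table (adjusted p = 0.00854). The ubiquitin ligase genes Fbxw7 and Itch were each called both ways: in the authors' deposited table Fbxw7 rose by 0.55 ± 0.18 at 1 of 38 regions (adjusted p = 0.0117) with 1 other lower, and Itch fell by 0.51 ± 0.13 at its start (adjusted p = 8.61e-04) with 1 other of 3 higher.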

How the data were processed

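H3K27ac ChIP-seq of Beko cells was analysed from the authors' deposited table of differential regions. FastQC, Bowtie2, SAMtools and deepTools (no versions) and the build mm9 are named in the submitters' processing notes. The region caller, read counter, use of inputs and RBPJ overlap rule were not given in the sources used here. Per the file headers, the columns are those of DESeq2: the base mean is a signal the authors averaged over libraries, and the log2 fold change and its SE, the Wald score, the p-value and the adjusted p-value are the authors' own for each treatment. Headers do not name the control, which was taken to be DMSO. The authors' Benjamini-Hochberg adjusted p under 0.05 was the call, and regions without one were untested.

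The planned contrast of both treatments would need values per library. Instead, the deposited GSI log2 fold change was subtracted from that of apicidin and divided by the root of the summed variances, with a two-sided p from the normal distribution, adjusted over all 56342 regions. The shared DMSO libraries make this SE too large. The SE that allows for them assumed a correlation of 0.5 between both log2 fold changes, which was not estimated from the data. The test with summed variances was run on simulated fold changes whose errors were drawn independently for each treatment. That run therefore does not cover the shared DMSO libraries. Intervals are 95% normal intervals from the SE.

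Genes and lists were chosen with earlier results of these data known, and so were the rules. For each gene the text names the highest-base-mean, start-covering, RBPJ-marked and called regions. Where these were over 6, it names the 3 of smallest p in each direction with the range of the rest. From each list it names the 2 genes of smallest adjusted p per direction and treatment. A gene that this rule would name is not reported here. Gene positions and promoters came from RefSeq tables of GRCm38.p6 and were used without converting coordinates. Tools were Python 3.11.15, pandas 2.3.3, numpy 2.4.6, scipy 1.17.1 and matplotlib 3.10.9. Alternatives were an adjusted p under 0.01, a log2 fold change of at least 0.5, adjustment over every region, a restriction to the stronger regions (base mean not below the median), centring on the median of those, subtraction of the running median over base mean, and an SE allowing for shared controls.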

Additional observations from a re-analysis of the deposited data

How the results depend on the processing

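No paired analysis was possible because the deposited table holds no values per library, and for the same reason no library could be left out. Apicidin decreases among the 66 regions numbered 9, but 5 at an adjusted p under 0.01 and 5 with a log2 fold change of at least 0.5. They numbered 7 on centring, 7 with the trend subtracted (6 of the original 9 among them) and 10 among the stronger regions (8 of the original 9 among them). Increases with apicidin numbered 3, but 2 at the stricter p and 5 on centring. With the trend subtracted they again numbered 3, with 2 of the original 3 among them. Among the stronger regions they numbered 3 too, with 1 of the original 3 among them. Decreases at start regions with apicidin numbered 2, but 1 at the stricter p, with the size limit, on centring and on trend subtraction. GSI decreases numbered 1, but 0 at the stricter p, 0 with the size limit and 2 with the trend subtracted. The added call was the Adam10 start (adjusted p = 0.0440), the 1 start region then lower with GSI against 0 as deposited. With an SE allowing for shared controls, 2 differences between the treatments were higher and 8 lower, against 0 and 1, and centring gave 1 higher. Counting each pathway gene by its region of highest base mean gave 4 higher with apicidin against 12, and 2 higher and 1 lower with GSI against 4 and 2. Adjusting over every region changed no count.

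Over all regions with apicidin, calls were 40.7% higher as deposited, 54.9% on centring, which moves values by 0.10 (the stronger regions' median is -0.10), and 52.3% with the trend subtracted. Uncalled values that changed sign were apicidin at the start regions of Adam17 (0.017), Rbpj (0.026) and Spen (0.039) with the trend subtracted, and of Maml3 (0.11, or 0.082 on centring). The differences at the Rbpj start (0.066) and at the Maml3 region 68.7 kb downstream (0.051) did so on centring. The causes were not tested.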
